A study of Mus musculus with 6 samples.

Results

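Genes that mark megakaryocytes and platelets, and that erythroid cells do not share, were followed across 6 microarrays of cells sorted from mouse bone marrow. The set was chosen by name, with earlier results of these data known. It holds 9 genes: Pf4, Ppbp, Gp1ba, Gp1bb, Gp9, Gp5, Gp6, Treml1 and Tubb1. A gene was taken as measured where the array annotation named it alone for a probe set, the group of short probes that reads out a transcript. This held for 8 of the 9 genes, through 9 probe sets, among 18193 genes and 45037 non-control probe sets in all. Gp1ba was not analysed here.

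The arrays hold RNA of adult wild-type C57BL/6 mice, with 3 Ebf2-positive samples and 3 Ebf2-negative ones. Both groups were taken fresh, had no treatment and came from the marrow fraction without CD45 (a leukocyte surface protein), TER119 (an erythroid surface marker) and CD31 (found on endothelium and also on platelets). Ebf2 is a transcription factor of the early B-cell factor family found in immature stromal cells, and the labels set the groups apart by whether the sort took cells with or without it. Each sample was made from 1000 or 2000 cells, and the RNA was amplified. The labels do not say how Ebf2 was detected, which sample had which cell number or whether the 3 samples of a group came from separate mice. The p-values therefore set each difference only against the spread among these samples within their groups, and that spread may be technical.

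Megakaryocytes are the large marrow cells that shed platelets. They fill granules with chemokines such as those encoded by Pf4 and Ppbp, and they place receptors for injured vessel walls on the platelet surface. The GPIb-IX-V complex, encoded by Gp1ba, Gp1bb, Gp9 and Gp5, catches von Willebrand factor, and glycoprotein VI, encoded by Gp6, binds collagen. Treml1 encodes a receptor stored in platelet granules and Tubb1 the beta-tubulin of the ring of microtubules that gives platelets their disc shape. Factors of the GATA and ETS families are known to act together at many megakaryocyte genes.

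Pf4, Ppbp, Gp5 and Gp9 were called lower in Ebf2-positive cells. The stretch before the transcription start is shown for these 4 because of that call. RefSeq promoter windows (assembly GRCm38.p6, 250 bases before to 50 after the start) were found for all 9 genes. The GATA motifs searched, on both strands, were AGATAA and TGATAA together with AGATAG and TGATAG, and the ETS motifs were CCGGAA and CAGGAA. In the sequences the capitals mark these matches, written 5′ to 3′ along the gene. Each run covers the 250 bases before the start, at chr5:90772185-90772434 on the plus strand for Pf4, chr5:90768268-90768517 on the plus strand for Ppbp, chr16:30310782-30311031 on the minus strand for Gp5 and chr6:87777820-87778069 on the plus strand for Gp9. The 2 matches of Pf4 lay just after the start, at positions 15 to 42, and are given as a run of 28 bases (chr5:90772449-90772476, plus strand).
Pf4: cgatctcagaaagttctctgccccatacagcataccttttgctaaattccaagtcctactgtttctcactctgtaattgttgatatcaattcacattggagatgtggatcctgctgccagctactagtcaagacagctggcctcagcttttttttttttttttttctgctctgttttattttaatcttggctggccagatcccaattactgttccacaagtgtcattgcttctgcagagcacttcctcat
Pf4 matches: TTCCGGactgggcaggcagtgaAGATAA
Ppbp: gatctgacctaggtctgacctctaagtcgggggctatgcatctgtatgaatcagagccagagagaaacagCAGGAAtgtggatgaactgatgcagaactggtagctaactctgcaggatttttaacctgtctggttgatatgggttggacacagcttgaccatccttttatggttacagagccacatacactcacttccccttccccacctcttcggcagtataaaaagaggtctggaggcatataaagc
Gp5: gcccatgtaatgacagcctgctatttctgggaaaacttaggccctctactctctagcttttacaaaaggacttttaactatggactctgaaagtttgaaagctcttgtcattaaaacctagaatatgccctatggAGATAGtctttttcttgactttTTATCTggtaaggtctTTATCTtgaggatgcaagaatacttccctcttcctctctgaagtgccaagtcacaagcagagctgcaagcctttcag
Gp9: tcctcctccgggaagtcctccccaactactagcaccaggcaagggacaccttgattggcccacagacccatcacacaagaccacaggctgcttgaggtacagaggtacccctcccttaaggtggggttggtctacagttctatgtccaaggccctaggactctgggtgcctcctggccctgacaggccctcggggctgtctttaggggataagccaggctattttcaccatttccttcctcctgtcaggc

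A GATA motif was found in 5 of the 9 windows (Pf4, Gp1ba, Gp1bb, Gp5 and Gp6) and an ETS motif in 5 (Pf4, Ppbp, Gp1ba, Treml1 and Tubb1). Over all 32851 promoter windows of the same length, 29.8% held such a GATA motif and 41.4% such an ETS motif. Both kinds stood in the windows of Pf4 and Gp1ba, 2 of 9, against 11.4% of all windows. Gp5 had 3 GATA matches and no ETS match, Ppbp had a single ETS match at position -180, and Gp9 held none of the strings searched. Other variants of the 2 motifs were not searched. The matches in these windows did not overlap one another. A match is a string of letters and was not tested as a binding site.

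**Figure D1:**
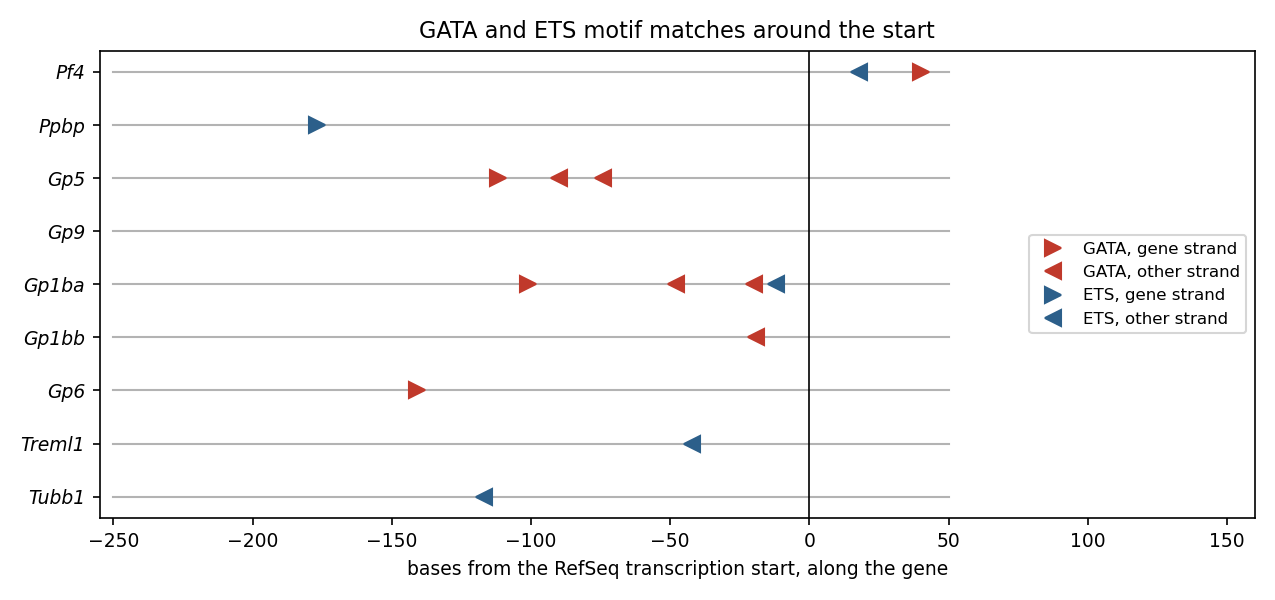
Positions of GATA (red) and ETS (blue) motif matches in the promoter windows of the 9 genes, with bases from the RefSeq transcription start on the horizontal axis and arrowheads pointing along the gene (right) or against it (left). Gp5 has 3 GATA matches, Pf4 has 1 match of each kind after the start, and Gp9 has none.

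The granule chemokine genes showed the widest gap between the groups. Pf4 encodes platelet factor 4, the main chemokine of platelet alpha granules. Its log2 signal was 6.50, 5.79 and 4.94 in Ebf2-positive replicates 1, 2 and 3 and 8.34, 9.54 and 8.65 in Ebf2-negative replicates 1, 2 and 3. All Ebf2-positive values lay below all Ebf2-negative values. Pf4 averaged 5.74 ± 0.78 (SD, n = 3) and 8.84 ± 0.62 in the respective groups, a difference of -3.10 on the log2 scale (SE 0.48), or 8.58-fold lower in Ebf2-positive cells (limma with Benjamini-Hochberg adjustment over 18193 genes, adjusted p = 0.00559). Of all genes tested, 1.97% had a difference further below that of Pf4. Its lowest value in the Ebf2-positive group, 4.94, was still above the median signal of every array, which lay between 3.69 and 3.80.

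Ppbp encodes the precursor of a family of platelet chemokines that attract neutrophils. Its log2 signal was 3.90, 3.66 and 3.41 in Ebf2-positive replicates 1, 2 and 3 and 5.38, 6.00 and 6.32 in Ebf2-negative replicates 1, 2 and 3. The groups did not overlap, and the Ebf2-positive values stood at about the array medians. The difference was -2.24 (SE 0.30, 4.74-fold lower, limma adjusted p = 0.00323). Array signal near background is compressed, so folds are understated at such levels. Pf4 and Ppbp both kept their calls with each array left out, with adjusted p up to 0.0245 for Pf4 and 0.0151 for Ppbp.

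The starts of Ppbp and Pf4 are 3917 bases apart in RefSeq, inside a cluster of CXC chemokine genes on chromosome 5. The neighbours were looked up after the values of Pf4 and Ppbp had been seen. Cxcl5, Cxcl3, Cxcl15 and Cxcl2, which encode other chemokines of the cluster, were below the array median on all 6 arrays. Cxcl1, a neutrophil-attracting chemokine, differed in the opposite direction: its signal was 9.68, 10.11 and 9.79 in Ebf2-positive replicates 1, 2 and 3 and 5.31, 6.34 and 4.82 in Ebf2-negative replicates 1, 2 and 3. That is a difference of 4.37 (SE 0.40, limma adjusted p = 0.00095). Within the cluster the platelet chemokine genes were thus lower, and Cxcl1 higher, in Ebf2-positive cells.

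Of the measured genes of the GPIb-IX-V complex, Gp5 and Gp9 were lower in Ebf2-positive cells and Gp1bb was not called. Gp5 encodes glycoprotein V, the thrombin-cleaved subunit. Its signal was 3.80, 3.90 and 3.29 in Ebf2-positive replicates 1, 2 and 3 and 5.11, 6.07 and 5.27 in Ebf2-negative replicates 1, 2 and 3. The groups lay well apart, with the Ebf2-positive values again at about the array medians. The difference was -1.82 (SE 0.32, 3.53-fold lower, limma adjusted p = 0.00887), and adjusted p stayed at or below 0.0311 with any single array left out.

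Gp9 encodes glycoprotein IX, which the complex needs to reach the cell surface. Its signal was 4.99, 4.70 and 4.58 in Ebf2-positive replicates 1, 2 and 3 and 5.29, 6.09 and 5.87 in Ebf2-negative replicates 1, 2 and 3. The groups did not overlap, although Ebf2-positive replicate 1 came close to Ebf2-negative replicate 1. The difference was -0.99 (SE 0.27, 1.99-fold lower) and lay just under the threshold (limma adjusted p = 0.0386). It was lost without Ebf2-positive replicate 2 (adjusted p = 0.0821) or 3 (0.0929) and without Ebf2-negative replicate 2 (0.121) or 3 (0.131), always with the same sign. Among all probe sets tested singly, its adjusted p was 0.0521.

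Gp1bb encodes the beta chain of glycoprotein Ib, a small leucine-rich partner of the alpha chain. Its brighter probe set read 4.56, 5.77 and 5.39 in Ebf2-positive replicates 1, 2 and 3 and 4.52, 6.82 and 4.83 in Ebf2-negative replicates 1, 2 and 3. The groups overlapped, and Ebf2-negative replicate 2 stood above the other 5 arrays. The difference was -0.15 (95% interval -1.73 to 1.42, limma adjusted p = 0.887), an interval that holds differences in both directions larger than that of Gp9.

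A second probe set naming only Gp1bb read 4.33, 4.37 and 4.53 in Ebf2-positive replicates 1, 2 and 3 and 3.78, 4.22 and 4.24 in Ebf2-negative replicates 1, 2 and 3. Its groups did not overlap, with Ebf2-positive on top, and it differed by 0.33 (95% interval -0.15 to 0.80, limma adjusted p = 0.342 among probe sets). Another probe set, outside the selection because the annotation names it for Septin5 and Gp1bb together, read 5.91, 6.39 and 6.80 in Ebf2-positive and 3.02, 4.15 and 3.66 in Ebf2-negative replicates 1, 2 and 3. It was higher in Ebf2-positive cells by 2.76 (SE 0.36, limma adjusted p = 0.00567 among probe sets). Septin5 encodes a cytoskeletal GTP-binding protein. Which of the 2 genes that probe set followed was not tested, and neither of the probe sets naming Gp1bb alone was called.

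The collagen receptor, the granule receptor and the platelet tubulin were not called. Gp6 read 2.66, 3.13 and 2.70 in Ebf2-positive replicates 1, 2 and 3 and 2.83, 2.77 and 2.72 in Ebf2-negative replicates 1, 2 and 3. All 6 values were below the median of their array, so its probe set was dim in both groups and no fold is given (difference 0.05, 95% interval -0.44 to 0.55, limma adjusted p = 0.875).

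Treml1 read 4.33, 4.51 and 4.78 in Ebf2-positive replicates 1, 2 and 3 and 4.74, 5.35 and 5.02 in Ebf2-negative replicates 1, 2 and 3. The groups overlapped only in that Ebf2-positive replicate 3 was just above Ebf2-negative replicate 1 (difference -0.50, 95% interval -1.07 to 0.08, limma adjusted p = 0.19). Tubb1 read 4.19, 6.04 and 5.64 in Ebf2-positive replicates 1, 2 and 3 and 6.17, 6.39 and 5.28 in Ebf2-negative replicates 1, 2 and 3. Ebf2-positive replicate 1 was the lowest of its arrays, and the groups overlapped (difference -0.66, 95% interval -1.96 to 0.65, limma adjusted p = 0.438). The interval of Tubb1 reaches past the differences found for Gp9 and Gp5, so a like difference could have gone undetected with 3 arrays a group.

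**Figure D2:**
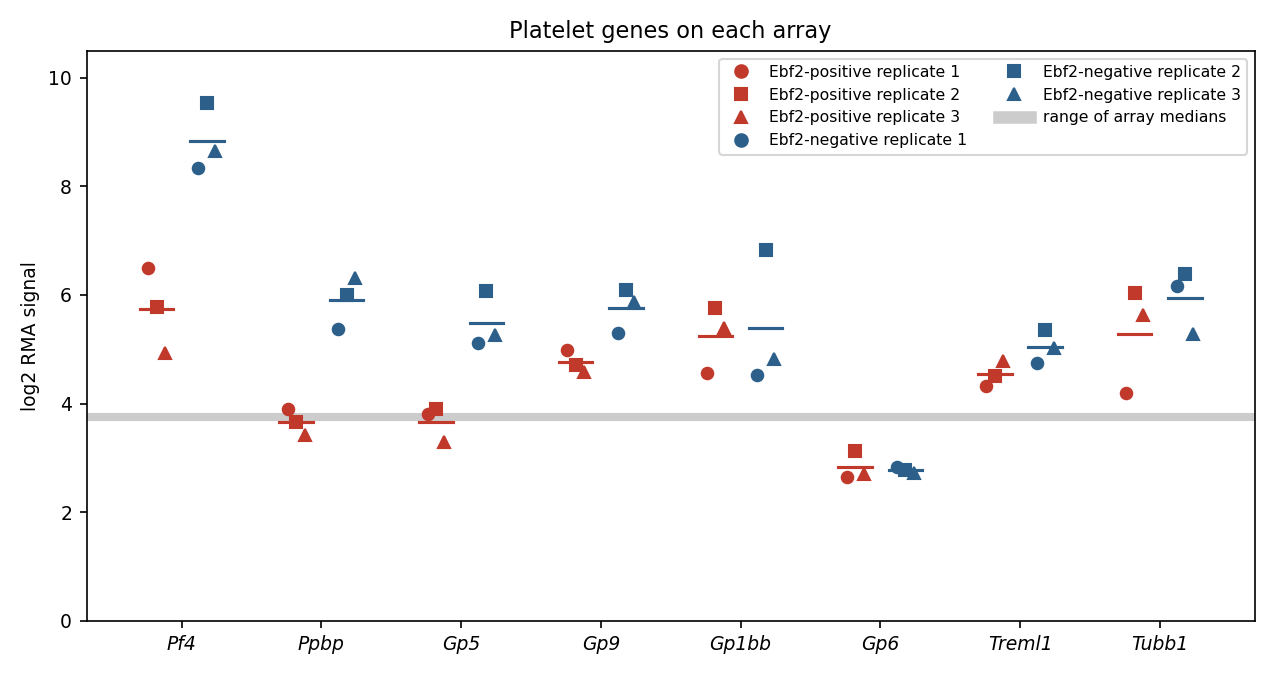
Log2 RMA signal (vertical axis) of the 8 measured platelet genes on each array, in red for Ebf2-positive and blue for Ebf2-negative cells, with the mean of 3 arrays as a line and the range of array medians (3.69 to 3.80) as a grey band. The groups are apart for Pf4, Ppbp, Gp5 and Gp9 and overlap for the others, and Gp6 lies below the band on every array. Levels of different genes cannot be compared, since each comes from its own probes.

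Of the 8 measured genes, 4 were called lower in Ebf2-positive cells, 0 were called higher and 4 did not pass. Over all 18193 genes, 13.6% were called lower, 10.8% higher and 24.4% either way. Groups did not overlap, with Ebf2-positive below Ebf2-negative, for the same 4 platelet genes, a property of 21.2% of all genes. The median difference of the 8 was -0.83, against 0.07 over all genes, and 7 of the 8 differences were below 0. Among probe sets tested singly, 3 of the 9 were called lower, against 8.76% of all. In a bulk sample, fewer cells of a type and less RNA per cell cannot be told apart.

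The 4 called genes were all read by probe sets that the annotation ties to a RefSeq mRNA. There were 5 such probe sets, of which 4 were called in the fit over genes (all but the brighter one of Gp1bb) and 3 in the fit over probe sets (without Gp9). Of the 4 probe sets tied to other sequence records (Gp6, Treml1, Tubb1 and the second of Gp1bb), 0 were called by limma (0 also at an unadjusted p under 0.05). This split was seen after the values, and whether it bears on the calls was not tested.

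**Figure D3:**
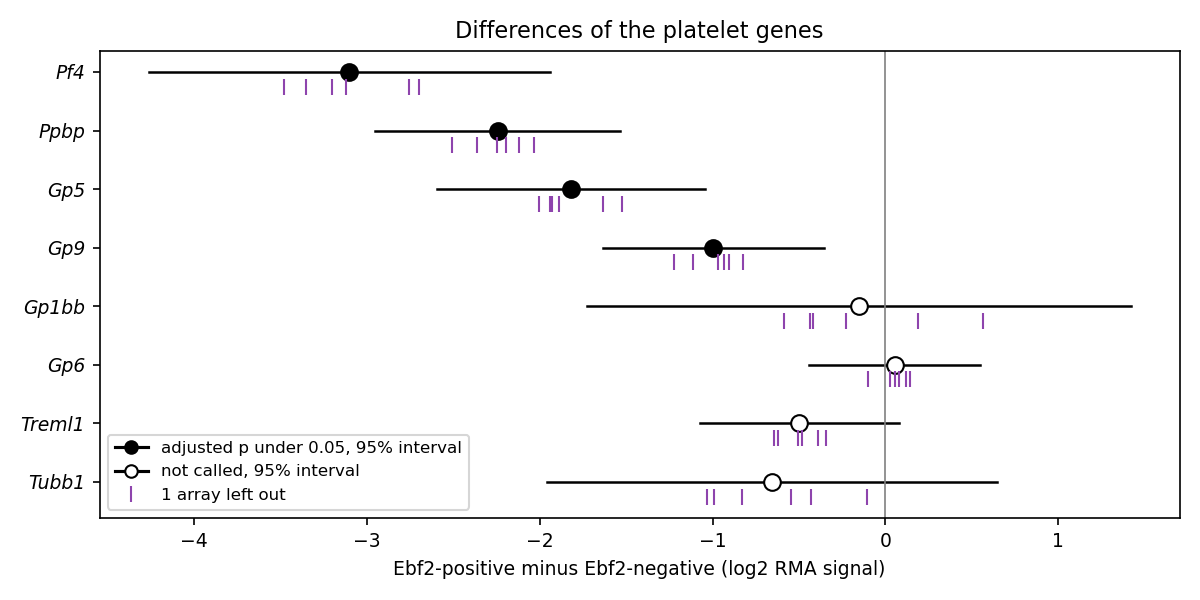
Difference of Ebf2-positive minus Ebf2-negative cells (horizontal axis, log2 RMA signal) for the 8 measured platelet genes, with the 95% interval as a line, filled points for adjusted p under 0.05, and purple ticks for the value with 1 array left out. Pf4, Ppbp, Gp5 and Gp9 lie below 0 with all their ticks, whereas the ticks of Gp1bb and Gp6 fall on both sides of 0.

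The order of the Ebf2-negative arrays was read for each platelet gene. Of the 8 genes, 6 had their highest Ebf2-negative value on replicate 2 (all but Ppbp and Gp6), and 6 had their lowest on replicate 1 (all but Gp6 and Tubb1). How many of all genes share this order was not counted, so it may not be particular to the platelet genes. On replicate 2 of the Ebf2-negative group, the mean signal over 10 stromal markers was 8.17, against 7.45 and 7.36 on replicates 1 and 3. The mean over 8 endothelial markers was 6.03 there, against 4.93 and 4.79, and that over 7 basophil and mast cell markers was 7.28, against 8.45 and 8.57. The other blood lists were not lower there. The mean over 10 erythroid markers was 9.05 on replicate 2, against 8.90 and 8.87, and that over 11 leukocyte markers was 6.97, against 6.64 and 6.94. The probe sets of the poly-A control RNAs averaged 8.70 there, against 10.31 and 10.52. The part of these values in the platelet gene signal was not tested. Without Ebf2-negative replicate 2 the differences of Pf4, Ppbp and Gp5 were -2.75, -2.19 and -1.53 and still called, while that of Gp1bb turned to 0.56 (adjusted p = 0.431). In the Ebf2-positive group the highest value fell on replicate 2 for 4 genes (Gp5, Gp1bb, Gp6 and Tubb1), on replicate 1 for 3 (Pf4, Ppbp and Gp9) and on replicate 3 for Treml1.

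Other genes of the lineage were described in 4 lists, 71 genes of which 65 were measured. The lists were taken from textbook knowledge, with earlier results of these data known. They went both ways, with 19 called lower, 11 called higher and a median difference of -0.45. Over all genes, 13.6% were called lower and 10.8% higher, with a median difference of 0.07. The counts of each list below stand against these shares, and a single called gene in a list is below either share. Of 15 transcription factors of megakaryocytes, 8 were lower in Ebf2-positive cells and 0 higher, with a median of -1.67. Tal1, a blood stem cell and megakaryocyte factor, averaged 3.75 ± 0.96 on the Ebf2-positive arrays and 9.36 ± 0.43 (SD, n = 3 each) on the others (-5.60). Gfi1b, a zinc finger repressor, differed by -4.55, Zfpm1, the cofactor FOG1 of GATA1, by -4.20, and Nfe2, which drives late platelet genes including Tubb1, by -4.14. These 4 factors also act in erythroid cells, as does Gata1 (-3.80), named after its value was seen. Without Ebf2-positive replicate 2, 1 factor of this list was higher.

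The 7 factors that did not pass included Fli1 and Runx1. Fli1, the ETS factor of megakaryocytes, was at 5.64 ± 0.90 and 6.09 ± 0.72 (-0.45, 95% interval -1.76 to 0.87, limma adjusted p = 0.606), and Runx1, a factor of blood stem cells and megakaryocytes, differed by -1.0 (95% interval -1.97 to -0.04, adjusted p = 0.127). Both were named after their values were seen, and whether they differ from the called factors was not tested.

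Among 17 measured surface receptors, 4 were higher in Ebf2-positive cells and 1 lower, with a median of 0.25. The lower gene was Itga2b, the alpha chain of the platelet fibrinogen receptor (CD41). It read 5.58, 6.25 and 5.98 in Ebf2-positive and 7.63, 7.56 and 7.62 in Ebf2-negative replicates 1, 2 and 3. The groups were far apart and the Ebf2-negative arrays nearly equal (difference -1.67, SE 0.23, 3.18-fold lower, limma adjusted p = 0.00348).

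Its partner Itgb3, which stromal and bone cells also make, read 4.32, 6.89 and 7.71 in Ebf2-positive and 6.34, 5.81 and 5.72 in Ebf2-negative replicates 1, 2 and 3 (0.35, adjusted p = 0.794). Ebf2-positive replicate 1 was the lowest of the 6 arrays, and without it Itgb3 was higher in Ebf2-positive cells by 1.35 (adjusted p = 0.0466). The 4 higher genes were Cd9, a tetraspanin (2.71), Jam3, a junctional adhesion molecule (2.54), Esam, an adhesion molecule of endothelial cells and platelets (2.48), and Pear1, a platelet contact receptor (2.36). None of these 4 is restricted to platelets. Without Ebf2-positive replicate 2, 3 receptors were lower.

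Of 15 granule and granule biogenesis genes, 4 were lower and 1 higher, with a median of -0.79. Rab38, a GTPase of lysosome-related organelles, differed by -2.65, Mmrn1, the factor V binding protein multimerin of alpha granules, by -2.45, Vps33b, a sorting protein of alpha granules, by -1.68 and Unc13d, a protein of granule release, by -1.64. Vps33b lost its call without Ebf2-negative replicate 1, 2 or 3 (adjusted p = 0.105, 0.071 and 0.0784), and Unc13d without Ebf2-negative replicate 1 (0.0545). Thbs1, thrombospondin 1, which fibroblasts and platelets make, was higher by 2.0 (adjusted p = 0.0385) but lost its call without Ebf2-positive replicates 1 or 3 or Ebf2-negative replicates 2 or 3 (adjusted p = 0.0759, 0.0604, 0.116 and 0.125). Vwf, the von Willebrand factor of endothelial cells and platelets, read 5.92, 7.82 and 6.02 in Ebf2-positive and 6.38, 6.96 and 5.79 in Ebf2-negative replicates 1, 2 and 3, and was not called (0.21, adjusted p = 0.825).

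Of 18 signalling, eicosanoid and cytoskeleton genes, 6 were lower and 6 higher, with a median of -0.14. Those lower were led by Tuba4a, an alpha-tubulin abundant in platelets (-2.92), and Fermt3, the integrin activator kindlin-3 of blood cells (-2.62). Those higher were led by Myl9, a myosin light chain of smooth muscle and megakaryocytes, which averaged 9.41 ± 0.43 on the Ebf2-positive arrays and 4.29 ± 1.13 (SD, n = 3 each) on the others (5.12), and by Gng11, a G-protein gamma subunit (2.49). Without Ebf2-negative replicate 3 the count of lower genes here fell to 3.

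**Figure D4:**
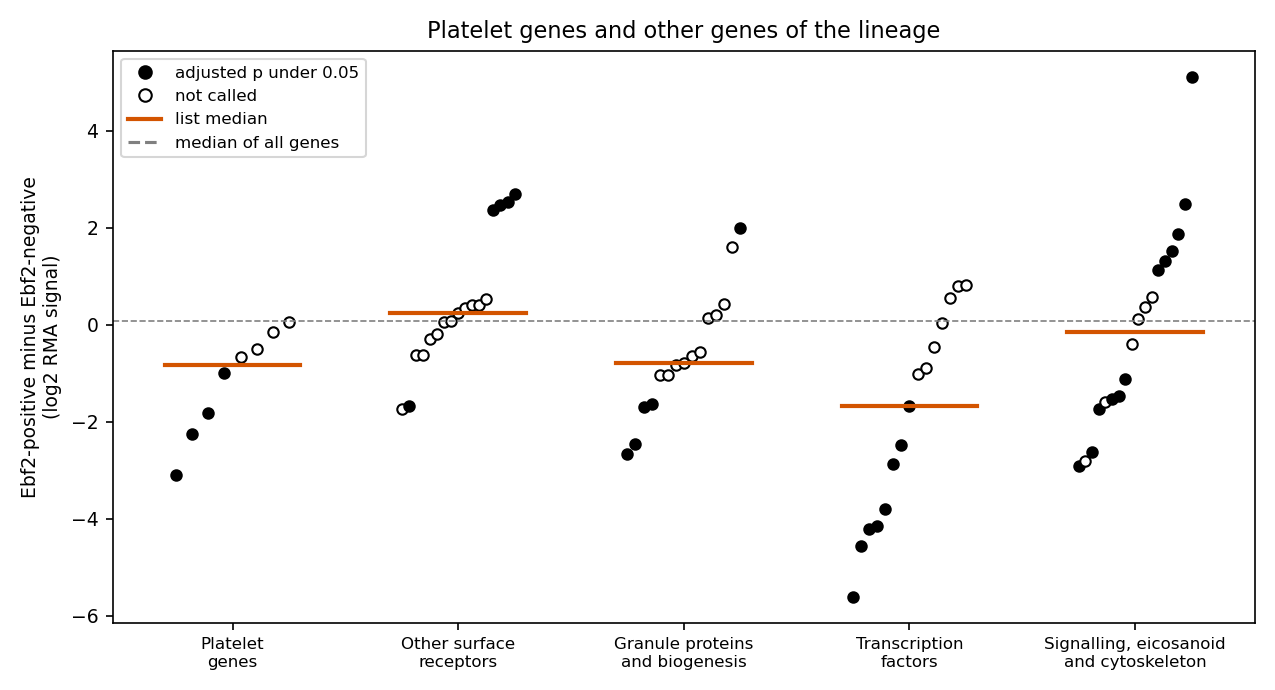
Difference of Ebf2-positive minus Ebf2-negative cells (vertical axis, log2 RMA signal) for the platelet genes and 4 lists of other lineage genes, 1 point per measured gene, filled where adjusted p was under 0.05, with list medians in orange and the median of all genes (0.07) dashed. The platelet genes have filled points below 0 only, as do the transcription factors, whereas the other 3 lists have filled points on both sides.

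Markers of other cell types were read from the same fit. Over all genes, 13.6% were called lower and 10.8% higher. Of 10 measured erythroid markers, 9 were lower in Ebf2-positive cells and 0 higher, and their mean signal ran from 4.67 to 5.26 on the Ebf2-positive and from 8.87 to 9.05 on the Ebf2-negative arrays. Of 7 basophil and mast cell markers, 6 were lower and 0 higher, with means of 4.23 to 4.40 against 7.28 to 8.57. Of 11 leukocyte markers, 2 (Laptm5 and Rac2) were lower and 1 (Mpo) higher, with overlapping means of 5.72 to 6.71 against 6.64 to 6.97. These leukocyte counts are near the shares over all genes. Without Ebf2-positive replicate 2, 5 leukocyte markers were lower, and without Ebf2-negative replicate 3, 0 were lower and 0 higher by limma (Mpo at adjusted p = 0.0643). The mean over the platelet genes ran from 4.34 to 4.69 against 5.30 to 6.13. The part of these other lineages in the platelet gene differences was not tested.

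Of 8 endothelial markers, Tek was higher in Ebf2-positive cells and 0 were lower, with means of 5.69 to 7.01 against 4.79 to 6.03. That count of higher markers is near the share over all genes, 10.8%. Of 10 stromal markers, 8 were higher and 0 lower, with means of 10.82 to 11.26 against 7.36 to 8.17. The sort markers were checked as well. Ebf2 differed by 4.67 (limma adjusted p = 0.000476). Ptprc, which encodes CD45, differed by -2.65 (adjusted p = 0.0698, and 0.0162 without Ebf2-positive replicate 3), and Pecam1, which encodes CD31, was above the array median on 2 of the 6 arrays (0.56, adjusted p = 0.403). Ptprc was above the array median on 5 of the 6, although the gate removed cells with CD45 protein.

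**Figure D5:**
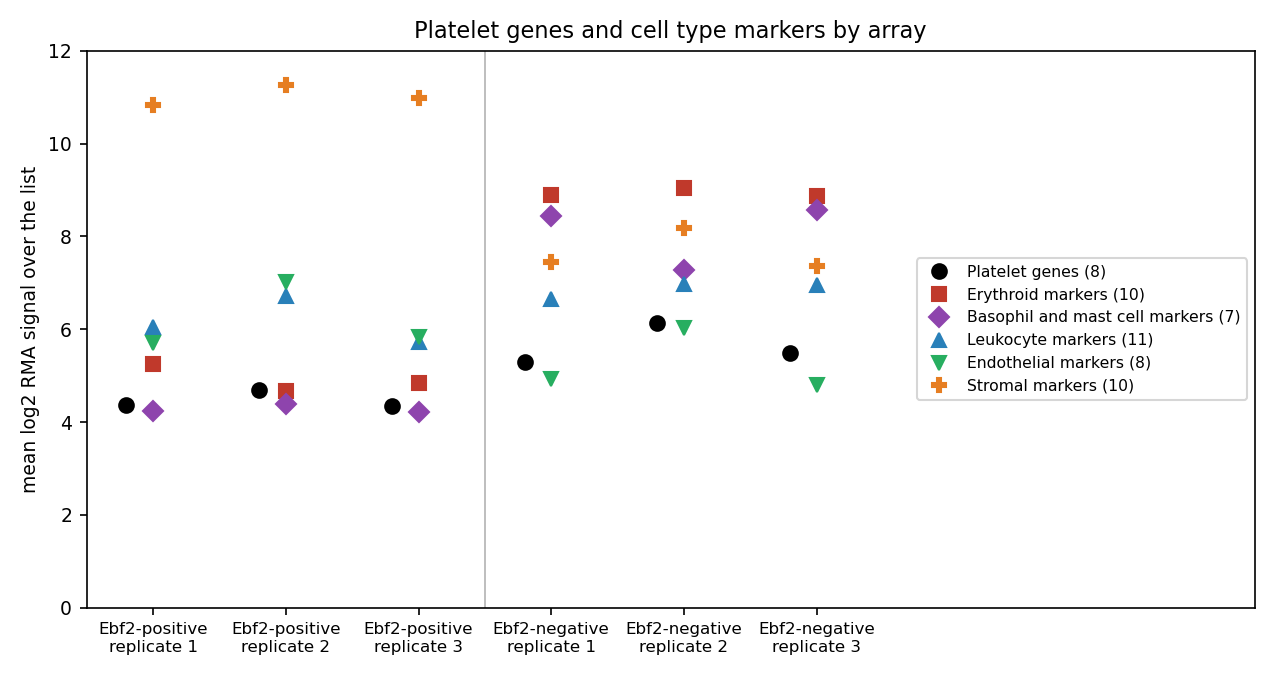
Mean log2 RMA signal (vertical axis) over the platelet genes (black) and over 5 lists of cell type markers on each of the 6 arrays, with the number of measured genes in brackets. From the Ebf2-positive to the Ebf2-negative arrays the means over the platelet, erythroid and basophil lists are higher and the mean over the stromal list is lower. Heights of different lists cannot be compared, since each rests on its own probes.

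The genes whose pattern was most like that of the platelet genes were sought by Pearson correlation over the 6 arrays with the mean of the 8 centred platelet gene profiles, among 10751 other named genes with a range of at least 1. The 5 closest were Eef2, a translation elongation factor (r = 0.993), Cars, a cysteinyl-tRNA synthetase (0.991), Thtpa, a thiamine triphosphatase (0.988), Zfp119a, a zinc finger protein (0.983), and Grem1, an antagonist of bone morphogenetic proteins (0.983). All 5 had differences between -1.54 and -0.82, with no overlap between groups, and all had their highest value on Ebf2-negative replicate 2. The platelet profile itself has both traits, so they follow from how the 5 were chosen. Over all genes, 21.2% had all Ebf2-positive values below all Ebf2-negative values. Zfp119a was above the array median on 1 of the 6 arrays and Grem1 on 3, so part of each profile was near background. The 6 points share 2 groups and their arrays' normalization, so such values of r are a description only. No gene of the megakaryocyte lists was among the 5.

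Depth has no direct equivalent on arrays, and the number of arrays limits the precision. Correlations across the non-control probe sets were 0.968 to 0.977 within the Ebf2-negative and 0.919 to 0.924 within the Ebf2-positive group, while pairs from different groups reached 0.825 to 0.873. These are across probe sets, which do not count as replicates. The count of genes called lower, 2469, was 1586 without Ebf2-negative replicate 1 and 1396 without replicate 3, and the count called higher, 1961, was 1294 without the latter. The poly-A control RNAs averaged 12.32 ± 0.23 on the Ebf2-positive and 9.84 ± 0.996 on the Ebf2-negative arrays (SD, n = 3 each). Centring on them lowers every difference by the same amount (-2.48), after which all 8 platelet genes, and 15596 of the 18193 genes, were called lower and 227 higher. Every difference given here is thus one relative to the rest of the array.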

How the data were processed

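Platelet gene signal was compared between 3 Ebf2-positive and 3 Ebf2-negative samples on Affymetrix MOE430_2 arrays. The deposited values are intensity values on a linear scale, 1 per probe set and array, made by the authors with RMA (background correction, quantile normalization, probe summary), per the submitters' processing notes. No RMA version was found in the labels. Quantile normalization hides differences in total RNA, and amplification can add spread to dim genes.

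Here log2 was taken, 64 control probe sets were left out, and each gene was read from its probe set with the highest mean among those naming it alone. Names came from GEO's array annotation. The test was that of limma 3.58.1 (R 4.3.3, lmFit and eBayes, two-sided), run over all 18193 genes. P-values were adjusted by Benjamini-Hochberg, and genes under 0.05 were called. The code of the fit was tested on simulated data with known changes and independent noise, which checks the code and not the calls made here. All 8 measured platelet genes are named. In each of the 4 other lists of the lineage up to 4 called genes with the largest differences are named, or the 2 brightest where none passed, and the 5 genes most like the platelet profile. Others were named after their values were seen. The genes and lists were chosen with earlier results of these data known. Some listed genes were not analysed here. Figures were drawn with matplotlib 3.10.9. The alternatives were other scalings, a filter on dim probe sets, other rules for probe sets, other variance models, array weights, a minimum difference, the replicate number as a block and leaving out each array.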

Additional observations from a re-analysis of the deposited data

How the results depend on the processing

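Pf4 and Ppbp kept their direction and call under all 17 alternatives run, and Gp5 under 16, the exception being a minimum log2 difference of 1 (adjusted p = 0.165). Not all of these could undo a call. Pf4, Ppbp and Gp5 each have 1 probe set, so the other rules for probe sets left their differences unchanged. Centring on the poly-A controls lowers every difference and so favours calls of lower genes. Gp9 lost its call under 8 alternatives, always with the same sign: with 4 of the 6 arrays left out singly, with centring on the 75th percentile (adjusted p = 0.0778), a variance trend (0.0688), the replicate block (0.0846) and the minimum difference (1). With the minimum difference of 1, 775 genes were called higher and 658 lower, 2 platelet genes and 0 of their probe sets lower, and of the other lineage genes 4 higher and 9 lower.

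With centring on the poly-A controls, 227 genes were called higher and 15596 lower, 8 platelet genes and 9 of their probe sets lower, and of the other lineage genes 1 higher and 53 lower. This scaling also turned the sign of Gp6 (-2.43), Pear1 (-0.12), Esam (-0.00398), Thbs1 (-0.48), Itgb3 (-2.13), Vwf (-2.27), Pecam1 (-1.92) and Mpo (-1.06), since it shifts every difference alike. With each array left out, the genes called higher ran from 1294 to 1877 and lower from 1396 to 2471, platelet genes called lower from 3 to 4 and their probe sets from 3 to 4, and other lineage genes called higher from 10 to 12 and lower from 13 to 23.

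Replicate numbers are shared between the groups, but same-numbered arrays deviated together only weakly (r = 0.055, 0.113 and 0.034 for numbers 1, 2 and 3, although each array correlated best with its own number), so the number was not taken as a pairing. With it as a block, 3 platelet genes were called lower, and 1884 genes were called higher and 2335 lower. Signal near the array median limits what the folds of Ppbp and Gp5 can show.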
